A study of Mus musculus with 6 samples.

Results

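The genes described here encode histone deacetylases, histone demethylases, histone acetyltransferases, histone methyltransferases, co-repressor scaffolds, chromatin remodellers and chromatin readers. They were chosen by symbol alone: HDAC, KDM, KMT, KAT, SETD and SETDB, EZH, SIN3, NCOR, SMARC, CHD, CBX and BRD names, without use of any measured value. The choice gave 91 of the 23420 genes listed, in 11 classes, since no listed symbol began with Kmt. Of the 91, 83 reached a geometric mean of 1 CPM over the 6 libraries and were tested. CPM are read counts scaled to a common library size. The RNA came from mouse spleen B cells of the germinal centre, the site where antibody genes are mutated and selected during an immune response; B cells were enriched on beads and then sorted by flow cytometry. The KO group had the genotype BASP1 fl/fl with hCD20TamCre+/- and the WT group BASP1 +/+ with hCD20TamCre+/-, each with 3 libraries numbered 1 to 3. Both groups thus carried the Cre, which the human CD20 regulatory sequence places in B cells and which tamoxifen activates. All animals were immunized with NP-KLH, a hapten on a carrier protein. They received tamoxifen (1 mg) on day 5, day 7 and day 9, and cells were taken on day 10. The labels do not give ages, strains or whether libraries came from separate mice, so p-values cannot be taken to measure the spread between animals. For most genes they rest mainly on the spread of genes of like level, towards which limma draws the gene's own spread between these libraries. The fit had a median of 81.2 prior degrees of freedom, against 2 residual ones of the gene itself. An interval can thus be narrower or wider than the SD of the gene's own pairs would give.

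Chromatin genes of these families write, erase and read marks on histone tails, or move nucleosomes with the energy of ATP. Co-repressors such as NCOR and SIN3 tether histone deacetylases to DNA-bound repressors, and in germinal centre B cells BCL6 represses through NCOR complexes while EZH2 silences genes of differentiation. BASP1 is a membrane-associated protein that is also found in the nucleus, where it is known as a co-repressor of WT1 that acts with HDAC1 and the remodeller BRG1, the product of Smarca4.

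Each library listed log2 CPM values whose linear sums lay between 997617 and 1000513. Read depths are unknown. KO and WT values with the same replicate number had 1 sum over the 3 numbers, to within 0.001, for every gene. What the files hold per gene is thus a mean and 3 paired differences, and groups do not overlap exactly when the 3 differences have 1 sign. Basp1 had log2 CPM of 3.27, 2.86 and 3.23 in KO libraries, against 5.49, 5.90 and 5.53 in WT libraries. Its log2 fold change was -2.51 ± 0.45 (SD, n = 3 pairs; limma adjusted p = 3.3e-16). The labelled cell type carried its defining markers: all 8 germinal centre B cell genes on the list were tested. They summed to between 4198 and 4351 CPM in KO libraries and between 4339 and 4496 CPM in WT libraries. The 8 listed T cell markers summed to between 222 and 236 CPM in KO libraries and between 189 and 202 CPM in WT libraries. Nearly all of that was Lck (228 CPM in KO and 194 CPM in WT), while Cd3e was at the lowest common value in all 6 libraries. The 8 myeloid markers summed to at most 3.20 CPM in KO and 5.23 CPM in WT, and the 7 listed erythroid and platelet markers to at most 2.86 CPM in KO and 2.30 CPM in WT. The 5 pan B cell markers summed to between 7371 and 7645 CPM in KO libraries and between 7878 and 8170 CPM in WT libraries, so that their sums, like those of the T cell and myeloid lists, did not overlap between groups. The 7 listed plasma cell markers summed to between 2848 and 3031 CPM in KO libraries and between 2999 and 3192 CPM in WT libraries, and of the 5 tested Irf4 and Prdm1 were higher in every KO library. Irf4 had a geometric mean of 15.8 CPM in KO and 10.9 CPM in WT (log2 fold change 0.54 ± 0.26, limma adjusted p = 0.0636). Prdm1 had a geometric mean of 2.203 CPM in KO and 1.16 CPM in WT (0.93 ± 0.56, limma adjusted p = 0.256). The other tested plasma cell markers had replicate numbers of both signs. Igj, now named Jchain, was at -0.16 ± 0.20 (limma adjusted p = 0.331), Mzb1 at -0.04 ± 0.14 and Xbp1 at 0.05 ± 0.15. The part of these markers in the results was not tested.

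No chromatin gene of these classes passed 5% FDR between KO and WT (limma, 0 of 83 tested), where 0.266% of all 10133 genes tested did. At an unadjusted p under 0.05 there were 10 of 83 (12.05%), all with a negative log2 fold change. Over all tested genes 4.66% had such a p with a negative and 4.16% with a positive fold change. Among them were Ncor1, Smarca4, Smarca2, Setd8, Smarce1, Chd4, Brd8, Brd3 and Cbx1. The median log2 fold change of the 83 was -0.060, against 0.0037 over all genes tested, and 55 of 83 (66.3%) were negative, against 48.7% of all genes. All 3 KO libraries lay below all 3 WT libraries for 16 genes (19.3%, against 12.5% of all genes tested) and above them for 3 genes (3.61%, against 15.2%).

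The sizes were small. Log2 fold changes ran between -0.48 (Kdm1a) and 0.29 (Kdm5b). The 95% interval lay within ±0.5 for 70 of the 83 genes and within ±0.25 for 29, against 7828 and 3282 of all 10133. The median distance from estimate to interval end was 0.195, against 0.208 over all genes tested. A few calls appeared when a replicate number was left out, and each of those genes had a negative fold change. Without number 1, 3 genes passed: Ncor1 (-0.47, limma adjusted p = 0.00925), Kdm1a (-0.87, adjusted p = 0.000103) and Smarca5 (-0.55, adjusted p = 1.69e-06). Without number 3, 2 genes passed: Smarca4 (-0.30, adjusted p = 0.0257) and Setd8 (-0.42, adjusted p = 0.0489). Without the block for replicate number Smarca2 passed (limma adjusted p = 0.0440), and with no filter on low values Ncor1 (0.0218) and Smarca5 (0.0346) did. Without number 2 none passed, and 3 of the 83 genes had an unadjusted p under 0.05, against 11 without number 1 and 21 without number 3. Over all genes the counts at such a p were 400 of 10133 without number 2, 882 of 10132 without number 1 and 1219 of 10132 without number 3. Of all genes 11, 136 and 102 passed 5% FDR without numbers 2, 1 and 3. Over all settings the limma adjusted p of Smarca5 ran between 1.69e-06 and 0.815, and for Ncor1, Kdm1a, Smarca4, Setd8 and Smarca2 the highest value was 1. Smarca5 was named after its values were seen.

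**Figure D1:**
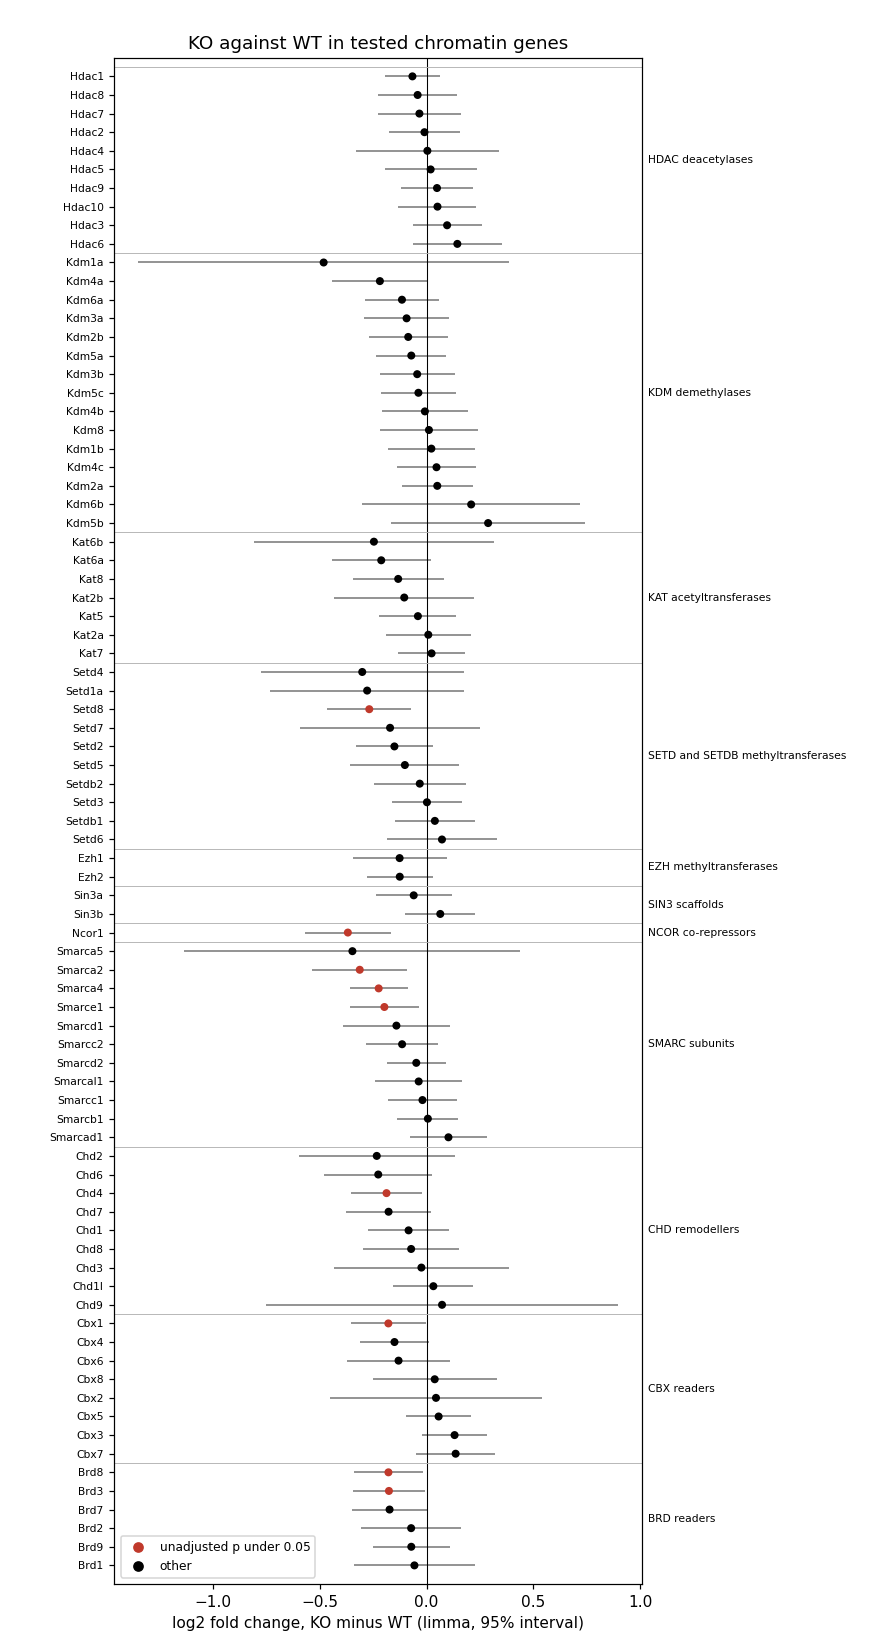
Log2 fold change, KO minus WT, of tested chromatin genes by class, with the 95% interval from limma; red points mark genes with an unadjusted p under 0.05. The red points plotted all lie left of 0, and most intervals stay within ±0.5 (70 of all 83 genes tested).

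Levels between genes are compared as CPM per kb of annotated exon (GENCODE, GRCm38), as geometric means of 3 libraries. Hdac1 stood highest of all members with 254 CPM per kb in KO and 265 in WT. It was followed by the SMARC subunits Smarcb1 (157 in KO and 156 in WT) and Smarcd2 (102 in KO and 105 in WT), then by the heterochromatin reader Cbx3 (94.9 in KO and 86.6 in WT). Smarca4 had 65.0 CPM per kb in KO and 76.0 in WT, and Ezh2 53.5 in KO and 58.3 in WT. The lowest tested member was the acetyltransferase gene Kat6b with 0.237 CPM per kb in KO and 0.281 in WT. Within pairs of related genes 1 member led in both groups. The log2 ratio per length of Ezh2 to Ezh1 was 3.72 ± 0.07 in KO and 3.72 ± 0.07 in WT (SD, n = 3 each). That of Smarca4 to Smarca2, the alternative ATPases of the BAF remodeller, was 4.39 ± 0.03 in KO and 4.30 ± 0.03 in WT. The log2 ratio of Hdac1 to Hdac2 was 3.48 ± 0.09 in KO and 3.54 ± 0.09 in WT, and that of Kdm6a to Kdm6b was 4.74 ± 0.11 in KO and 5.06 ± 0.11 in WT. These SDs exclude any difference between replicate numbers. Processed copies of Cbx3, Smarce1, Smarca5, Kat2b and Kat6b are annotated in this genome, so reads of these genes may be split or shared.

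**Figure D2:**
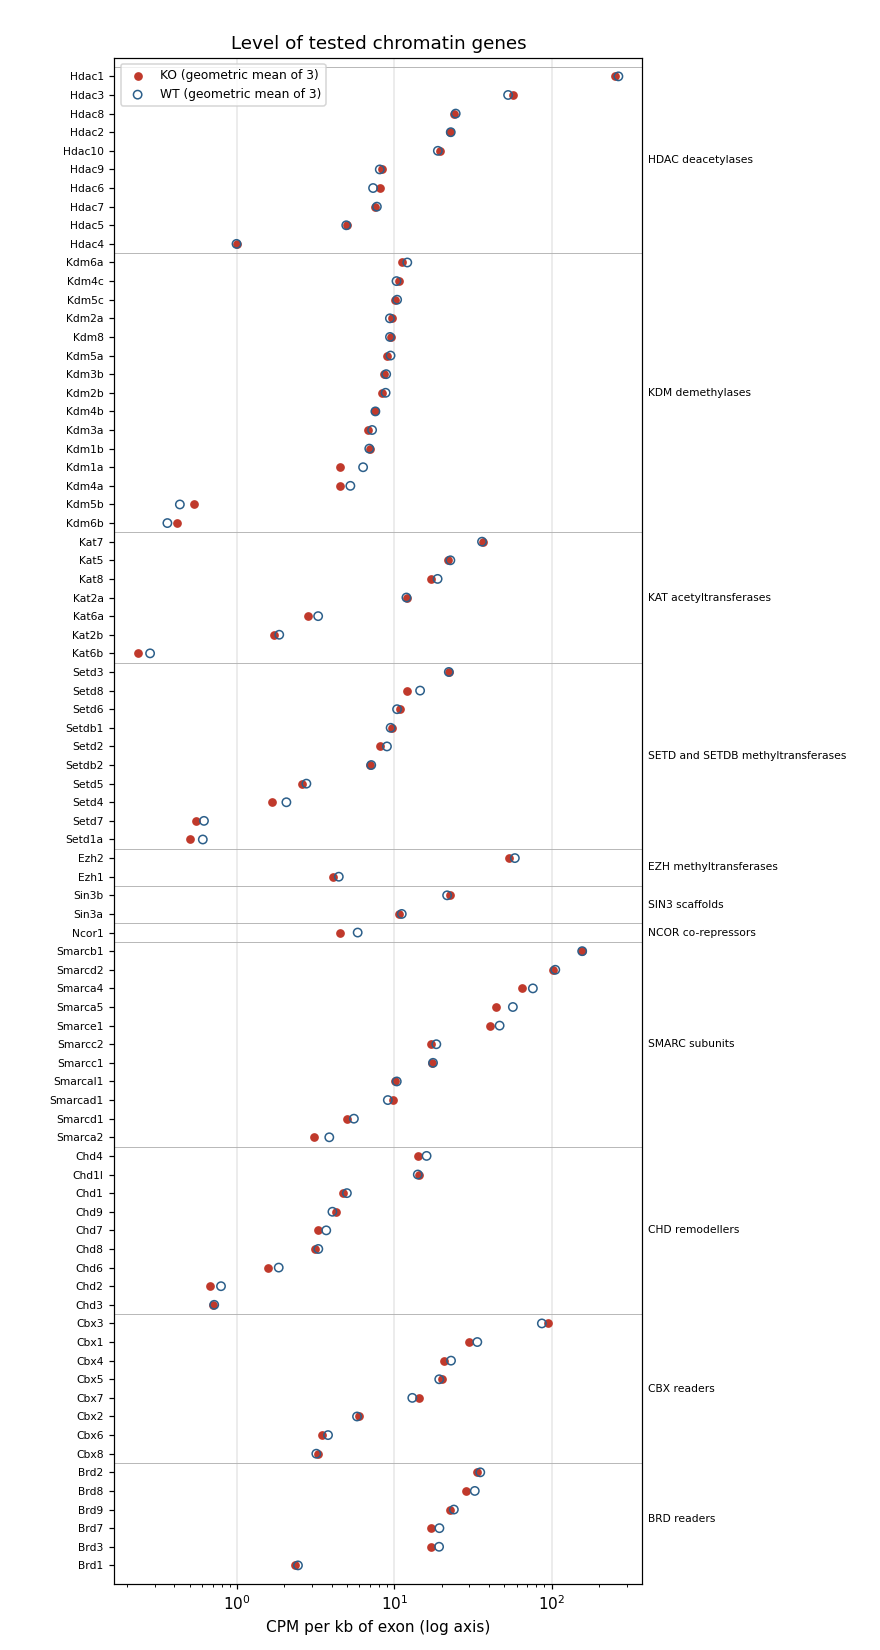
Level of tested chromatin genes in CPM per kb of exon (log axis), as the geometric mean of 3 KO libraries (filled) and 3 WT libraries (open), grouped by class. KO and WT lie close together for most genes, and the order within a class is set by level: Hdac1 at 254 and 265 is far above Hdac4 at 0.997 and 0.994.

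Histone deacetylases remove acetyl groups and are the catalytic arm of most co-repressors. None of the 10 tested HDAC genes passed, none had an unadjusted p under 0.05, and the median log2 fold change was 0.011. It was 0.014, 0.044 and -0.011 without numbers 1, 2 and 3, so its sign turned without number 3. All 10 had a 95% interval within ±0.5, as did 7828 of all 10133 genes tested. Hdac1, the partner of BASP1 in WT1 complexes, had log2 CPM of 8.98, 9.00 and 9.06 in KO libraries, against 9.11, 9.09 and 9.04 in WT libraries. The groups overlapped, and the log2 fold change was -0.07 ± 0.08 (SD, n = 3 pairs; 95% interval -0.20 to 0.06; limma adjusted p = 0.850). Hdac2, its close relative, had 6.58, 6.65 and 6.53 in KO libraries, against 6.61, 6.53 and 6.65 in WT libraries. The values of the groups were interleaved, and the log2 fold change was -0.01 ± 0.12 (interval -0.17 to 0.15). Hdac3, the enzyme bound by NCOR, had a log2 fold change of 0.10 ± 0.10 (interval -0.07 to 0.26). Hdac6, a mainly cytoplasmic deacetylase of tubulin, had the smallest p of the class (0.14 ± 0.17, interval -0.06 to 0.35, limma adjusted p = 0.774).

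The co-repressor gene Ncor1 gave the smallest p of all 83 members. The gene spans 62316426 to 62458541 of chromosome 11 on the minus strand (GRCm38, or mm10). Ncor1 had log2 CPM of 5.77, 5.47 and 5.76 in KO libraries, against 5.93, 6.23 and 5.94 in WT libraries. Every KO library lay below every WT library, with the widest gap in number 2. The log2 fold change was -0.37 ± 0.34 (SD, n = 3 pairs; interval -0.57 to -0.17; unadjusted p = 0.000741, limma adjusted p = 0.125). The SIN3 scaffolds, which hold HDAC1 and HDAC2, differed little: Sin3a by -0.06 ± 0.15 (interval -0.24 to 0.12) and Sin3b by 0.06 ± 0.06 (interval -0.10 to 0.23). For Sin3b each KO value lay above each WT value.

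SMARC genes encode subunits of the SWI/SNF (BAF) remodeller, together with the ISWI ATPase Smarca5 and the related helicases Smarcad1 and Smarcal1. Of 11 tested SMARC genes 9 had a negative log2 fold change, against 48.7% of all genes tested, and for 5 of the 11 every KO library lay below every WT library, against 12.5% of all genes. The class median was -0.115, and -0.063, -0.071 and -0.110 without numbers 1, 2 and 3. No SMARC gene passed 5% FDR. Smarca4 (BRG1; chromosome 9, 21616169 to 21704230, plus strand) had log2 CPM of 8.70, 8.62 and 8.77 in KO libraries, against 8.92, 9.00 and 8.84 in WT libraries. The groups did not overlap, and number 3 had the smallest gap. Its log2 fold change was -0.22 ± 0.16 (interval -0.36 to -0.09; limma adjusted p = 0.174). Smarca2 (BRM, the alternative ATPase; chromosome 19, 26605050 to 26778322, plus strand) had 4.52, 4.45 and 4.55 in KO libraries, against 4.80, 4.88 and 4.78 in WT libraries. The groups did not overlap, and the gap was widest in number 2. The log2 fold change was -0.31 ± 0.10 (interval -0.54 to -0.09; limma adjusted p = 0.292). Smarce1, a DNA-binding BAF subunit, completes the subunits with an unadjusted p under 0.05, at -0.20 ± 0.17 (interval -0.36 to -0.04; limma adjusted p = 0.383).

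Smarcb1 and Smarcd2, the subunits of highest level per length, lay near 0. Smarcb1, a core subunit, had log2 CPM of 8.03, 8.05 and 7.99 in KO libraries, against 8.01, 7.99 and 8.05 in WT libraries, with a log2 fold change of 0.01 ± 0.06 (interval -0.14 to 0.15). Smarcd2 differed by -0.05 ± 0.06 (interval -0.19 to 0.09), and Smarcad1 by 0.10 ± 0.13 (interval -0.08 to 0.28). Smarca5 had the largest spread between pairs of the 11 tested SMARC genes. It had 8.29, 8.12 and 7.86 in KO libraries, against 8.24, 8.40 and 8.67 in WT libraries, so number 1 went the other way from numbers 2 and 3. The log2 fold change was -0.35 ± 0.44, and its interval of -1.13 to 0.44 was the widest of those 11. Its processed copy Smarca5-ps lay at 0.156 CPM in KO and 0.0886 CPM in WT and was not tested.

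Promoter windows are shown for Ncor1, Smarca4 and Smarca2, the 3 members with the smallest p. They are RefSeq sequence of GRCm38.p6 from 250 bases before to 50 bases after a RefSeq start, the most upstream one in the promoter table, 5′ to 3′ on the strand of the gene. For Ncor1 and Smarca2 that start lies inside the GENCODE span given above, downstream of its 5′ end. Capitals mark each GC box (GGGCGG, the core bound by SP1, on either strand) and each site GCGNGGGCG (on either strand), a motif that WT1 shares with the EGR factors.
Ncor1 (chr11:62457283-62457582, minus strand): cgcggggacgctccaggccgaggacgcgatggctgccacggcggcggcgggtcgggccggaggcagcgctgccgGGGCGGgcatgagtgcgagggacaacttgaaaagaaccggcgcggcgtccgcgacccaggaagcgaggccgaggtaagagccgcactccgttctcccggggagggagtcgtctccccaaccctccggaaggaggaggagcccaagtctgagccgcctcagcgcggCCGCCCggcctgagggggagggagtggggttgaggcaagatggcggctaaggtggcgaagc
Smarca4 (chr9:21615919-21616218, plus strand): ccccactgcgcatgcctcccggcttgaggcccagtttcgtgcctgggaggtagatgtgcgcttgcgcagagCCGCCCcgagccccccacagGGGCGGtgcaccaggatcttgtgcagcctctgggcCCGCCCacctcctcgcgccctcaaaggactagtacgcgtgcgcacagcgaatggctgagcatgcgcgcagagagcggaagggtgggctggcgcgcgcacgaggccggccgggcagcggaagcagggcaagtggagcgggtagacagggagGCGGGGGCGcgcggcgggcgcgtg
Smarca2 (chr19:26604910-26605209, plus strand): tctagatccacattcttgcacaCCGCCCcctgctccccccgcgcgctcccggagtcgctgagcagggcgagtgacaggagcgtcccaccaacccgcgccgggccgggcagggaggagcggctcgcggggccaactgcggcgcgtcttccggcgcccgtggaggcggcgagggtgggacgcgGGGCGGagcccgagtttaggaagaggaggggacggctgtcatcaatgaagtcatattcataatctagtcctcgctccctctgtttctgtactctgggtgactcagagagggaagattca
Ncor1 held 2 GC boxes, Smarca4 held 3 and Smarca2 held 2, and the Smarca4 window alone of these held a GCGNGGGCG match, 1 in number. A window was matched for 70 of the 91 genes. Among the 70, 68.6% held a GC box, against 35.9% of the 27025 genes with a window in the table. The GCGNGGGCG site was present in 4 of the 70 (5.71%), against 5.53% of all, and the 4 were Smarca4, Smarca5, Cbx3 and Cbx6. The letters CCAAT, on either strand, were in 42.9% of the 70 windows, against 38.0% of all. The 27025 genes were not limited to those tested here, while most of the 70 were tested, so these shares compare unlike sets of genes.

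**Figure D3:**
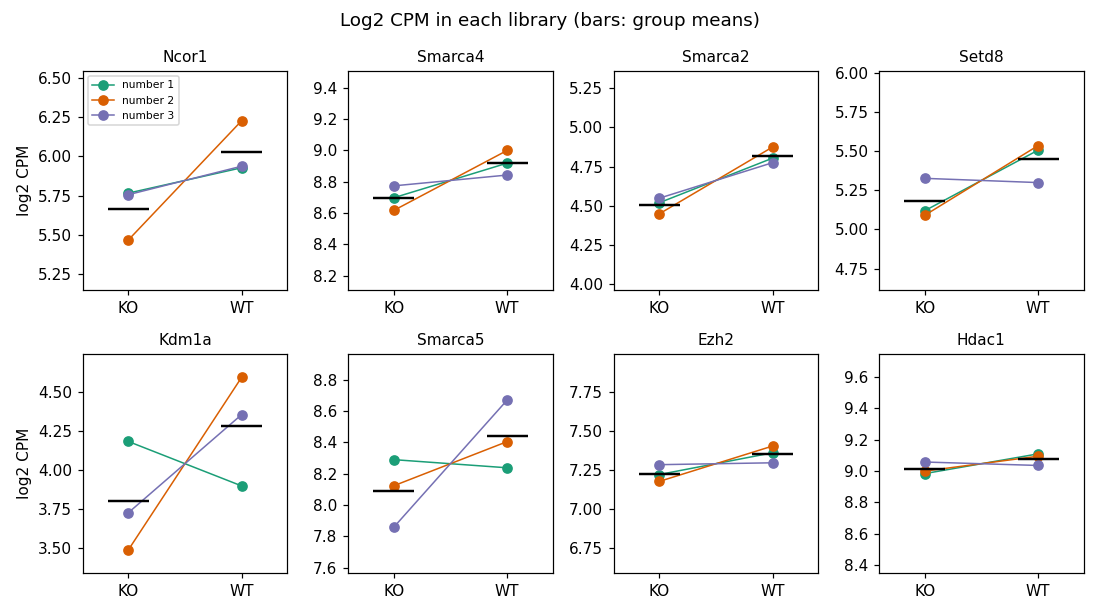
Log2 CPM of 8 chromatin genes in each library, KO left of WT, with lines joining libraries of 1 replicate number, black bars for group means and the same span of the log2 axis in each panel. Ncor1, Smarca4, Smarca2 and Ezh2 do not overlap between groups, while Setd8, Kdm1a, Smarca5 and Hdac1 have 1 number each that goes the other way.

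CHD proteins are remodellers with chromodomains, and Chd4 is the ATPase of the NuRD co-repressor. None of 9 tested CHD genes passed; 7 were negative, with a median log2 fold change of -0.084. The median was -0.151, -0.061 and -0.235 without numbers 1, 2 and 3. Chd4 had log2 CPM of 6.62, 6.45 and 6.63 in KO libraries, against 6.69, 6.87 and 6.69 in WT libraries. The groups did not overlap, but the gap was -0.073 in number 1, -0.425 in number 2 and -0.065 in number 3. The log2 fold change was -0.19 ± 0.21 (interval -0.35 to -0.02; limma adjusted p = 0.468). Chd6 differed by -0.23 ± 0.24 (interval -0.48 to 0.03), with no overlap between groups. Chd1, which binds active promoters, differed by -0.08 ± 0.12 (interval -0.28 to 0.11). Chd9 had the widest interval of the class. Its log2 CPM were 5.96, 5.43 and 5.66 in KO libraries, against 5.33, 5.86 and 5.63 in WT libraries (0.07 ± 0.53, interval -0.75 to 0.90).

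Among the methyltransferases, Ezh2 and Ezh1, the alternative catalytic subunits of Polycomb complex PRC2, were both lower in every KO library than in every WT library. Neither passed. Ezh2 (chromosome 6, 47530139 to 47595341, minus strand) had log2 CPM of 7.22, 7.18 and 7.28 in KO libraries, against 7.36, 7.40 and 7.30 in WT libraries. The gap was widest in number 2 and almost nil in number 3, and the log2 fold change was -0.13 ± 0.11 (interval -0.28 to 0.03; limma adjusted p = 0.706). Ezh1 had 4.61, 4.65 and 4.63 in KO libraries, against 4.77, 4.74 and 4.76 in WT libraries, a log2 fold change of -0.13 ± 0.04 (interval -0.35 to 0.09; limma adjusted p = 0.818). Its 3 gaps were alike.

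Of 10 tested SETD and SETDB genes 7 were negative, with a median of -0.126, and none passed. Setd8, now named Kmt5a, is the enzyme of single methylation on histone H4 and is tied to cell division. It had log2 CPM of 5.12, 5.09 and 5.33 in KO libraries, against 5.51, 5.54 and 5.30 in WT libraries. Numbers 1 and 2 had KO below WT, and number 3 did not. The log2 fold change was -0.27 ± 0.26 (interval -0.47 to -0.07; limma adjusted p = 0.317). Setd2, the methyltransferase of transcribed gene bodies, differed by -0.15 ± 0.28 (interval -0.33 to 0.03). Setdb1, a repressor of retroelements, differed by 0.04 ± 0.10 (interval -0.15 to 0.22). The class median was -0.032 over genes of at least 8 CPM and -0.1005, -0.0215 and -0.075 without numbers 1, 2 and 3.

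Histone demethylases remove methyl groups, and none of the 15 tested KDM genes passed or had an unadjusted p under 0.05. The median log2 fold change was -0.038, with 9 negative. It was 0.008 without number 1, where its sign turned, -0.055 without number 2 and -0.115 without number 3. Kdm1a (LSD1, the demethylase of the CoREST co-repressor; chromosome 4, 136550540 to 136602723, minus strand) had the most negative value of the 83 tested genes. Its log2 CPM were 4.18, 3.49 and 3.73 in KO libraries, against 3.90, 4.59 and 4.35 in WT libraries. KO was above WT in number 1 and below it in numbers 2 and 3, and the log2 fold change was -0.48 ± 0.70 (interval -1.35 to 0.39; limma adjusted p = 0.790). Kdm4a had the smallest p of the class, with KO below WT in each number (-0.22 ± 0.19, interval -0.44 to 0.01, limma adjusted p = 0.592). Kdm6a, also named UTX, an eraser of the Polycomb mark, differed by -0.12 ± 0.19 (interval -0.29 to 0.06). Kdm6b, which erases the same mark, had 1.470, 1.499 and 1.457 in KO libraries, against 1.272, 1.243 and 1.285 in WT libraries. All KO values lay above all WT values, at a level of 2.78 CPM in KO and 2.41 CPM in WT, and the log2 fold change was 0.21 ± 0.04 (interval -0.30 to 0.72; limma adjusted p = 0.891). Kdm5b had the most positive value of the 83 tested genes (0.29 ± 0.74, interval -0.17 to 0.74), and its number 1 went the other way.

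The 7 tested KAT genes, which acetylate histones, had a median log2 fold change of -0.105, with 5 negative and none passing. The median was -0.061 without number 2. Kat6a, known for its role in blood stem cells, had the smallest p. It had log2 CPM of 4.57, 4.60 and 4.91 in KO libraries, against 5.02, 5.00 and 4.69 in WT libraries, with number 3 reversed (-0.21 ± 0.37, interval -0.44 to 0.02, limma adjusted p = 0.634). Kat2a, also named GCN5, differed by 0.01 ± 0.23 (interval -0.19 to 0.21), and Kat7, the member of highest level per length, by 0.02 ± 0.12 (interval -0.14 to 0.18). Kat5 and Kat8, 2 of the 7 (28.6%), had KO below WT in every library, against 12.5% of all genes tested. Their log2 fold changes were -0.04 ± 0.01 for Kat5 and -0.13 ± 0.07 for Kat8, and both intervals held 0.

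BRD proteins bind acetylated histones through bromodomains, and all 7 BRD genes were tested and had a negative log2 fold change, with a median of -0.173. None passed, and for none of the 7 did the groups separate fully. Of all genes tested 12.5% separated with KO lower and 15.2% with KO higher. Brd8, a subunit of the acetyltransferase complex TIP60, differed by -0.18 ± 0.25 (limma adjusted p = 0.473) and Brd3 by -0.18 ± 0.25 (adjusted p = 0.530). Brd7, a BAF subunit, differed by -0.17 ± 0.16, Brd2 by -0.07 ± 0.35, Brd9 by -0.07 ± 0.18 and Brd1 by -0.06 ± 0.08. The class median was -0.084, -0.352 and 0.034 in numbers 1, 2 and 3, so number 2 was far below the others. Without number 2 the median of the mean differences was -0.046.

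CBX proteins read methylated histones, either in heterochromatin (Cbx1, Cbx3 and Cbx5, the HP1 family) or in Polycomb complex PRC1 (the others). Of 8 tested CBX genes 3 were negative, and the median log2 fold change was 0.041. It was 0.077, 0.018 and -0.022 without numbers 1, 2 and 3, so its sign turned without number 3. Within the HP1 family the signs were mixed. Cbx1 had log2 CPM of 6.28, 6.21 and 6.04 in KO libraries, against 6.25, 6.33 and 6.49 in WT libraries (-0.18 ± 0.25, limma adjusted p = 0.540). Cbx3 had 7.60, 7.57 and 7.45 in KO libraries, against 7.35, 7.37 and 7.50 in WT libraries (0.13 ± 0.16, interval -0.02 to 0.28, limma adjusted p = 0.678). Cbx1 was lower mainly in number 3, while Cbx3 was higher in numbers 1 and 2. Cbx5 differed by 0.06 ± 0.17. Among the Polycomb members Cbx7 lay higher in each KO library than in each WT library (0.14 ± 0.10, interval -0.05 to 0.32), and Cbx2 varied most (0.04 ± 0.58).

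The replicate numbers differed in how the chromatin genes moved. Of the 83 genes 55 had KO below WT in number 1, 61 in number 2 and 35 in number 3. The medians were -0.082, -0.132 and 0.044, against 0.003, 0.011 and 0.004 over all genes tested. Over the mean differences, 50 of 83 were negative without number 2, with a median of -0.040, and 63 of 83 without number 3, with a median of -0.1105. The lowest class medians stood in number 2, at -0.393 for CHD and -0.352 for BRD genes among the classes of more than 2 genes. For HDAC genes the 3 medians were 0.0105, -0.0285 and 0.0405. The EZH pair and the SMARC class were the only ones of the 11 with a negative median in every number.

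**Figure D4:**
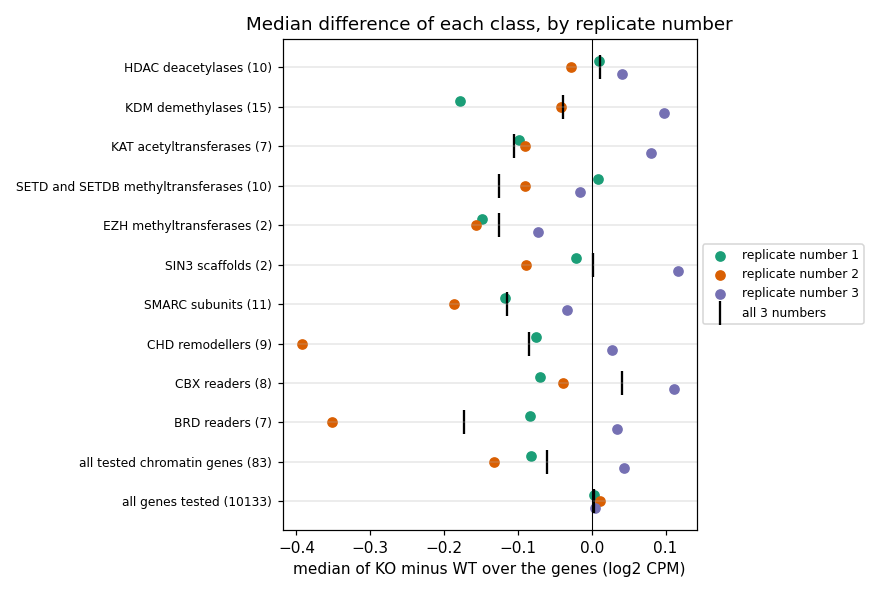
Median of the paired differences, KO minus WT, over the genes of each class shown for replicate numbers 1, 2 and 3 (points), with the median of the mean differences (bars). All genes tested stay at 0.003, 0.011 and 0.004, while number 2 lies at -0.393 for CHD and -0.352 for BRD genes.

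Other quantities moved along with the numbers. In number 2 the nuclear and non-coding RNA list (Malat1 and 6 others, 6 of them tested, Meg3 at the lowest common value throughout) summed to 393 CPM in the KO library and 763 CPM in the WT library. Its sums over the 3 libraries were between 393 and 609 CPM in KO and between 478 and 763 CPM in WT. Malat1 alone had 344, 255 and 447 CPM in KO libraries, against 448, 605 and 345 CPM in WT libraries, and in number 3 its order was turned. The naive and follicular B cell list summed to 354, 425 and 333 CPM in KO libraries, against 378, 315 and 401 CPM in WT libraries, with KO above WT in number 2. The part of these in the differences of chromatin genes was not tested. In bulk RNA, fewer cells of a type and less RNA per cell cannot be told apart.

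Chromatin genes had long transcripts, with a median exon length of 5139 bp, against 3227 bp over the tested genes with an annotated length, and 47 of the 83 fell in the longest quartile. Across 10052 genes, which share the same 6 libraries, exon length and paired difference had a Spearman correlation of -0.273 in number 1, -0.0868 in number 2 and 0.256 in number 3. All tested genes of the longest quartile (4867 bp or more) had medians of -0.065, -0.023 and 0.058 in numbers 1, 2 and 3, beside -0.082, -0.132 and 0.044 for the chromatin genes. The sign was thus the same in each number, and the chromatin genes were furthest from that quartile in number 2. In that quartile 6.85% of genes had a negative fold change at an unadjusted p under 0.05, and 15.1% had all KO libraries below all WT libraries. The part of length in the result was not tested.

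**Figure D5:**
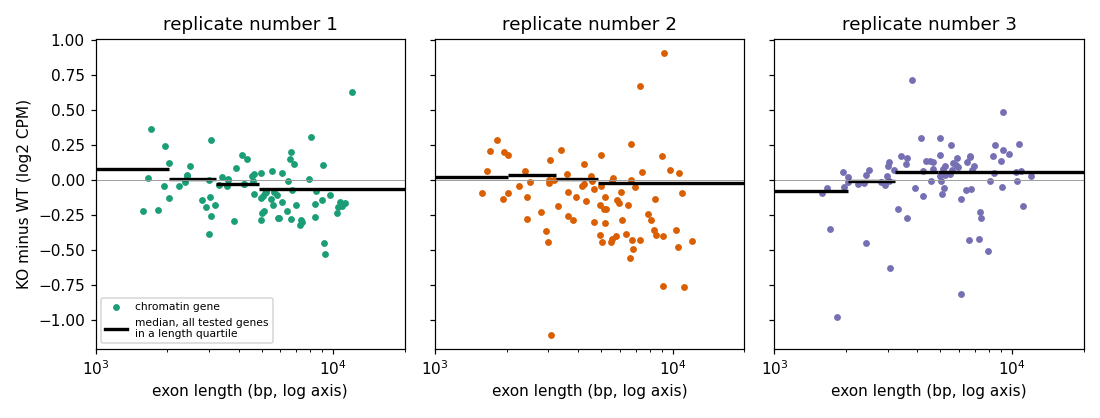
Paired difference, KO minus WT (log2 CPM), against exon length (log axis) for tested chromatin genes in each replicate number; black lines are medians over all tested genes in each length quartile. In the longest quartile the lines lie at -0.065, -0.023 and 0.058, and the chromatin genes as a whole have medians of -0.082, -0.132 and 0.044.

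Partner subunits with other symbols gave no call either. Of 25 tested Polycomb partners 0 passed 5% FDR and 18 were negative, with a median log2 fold change of -0.044. Without number 2 the median was 0.005 and 12 of 25 were negative. Suz12, the PRC2 subunit that EZH enzymes need for activity, came closest. It had log2 CPM of 5.54, 5.34 and 5.50 in KO libraries, against 5.75, 5.94 and 5.78 in WT libraries, with no overlap (-0.36 ± 0.21, interval -0.54 to -0.18, limma adjusted p = 0.0581). Suz12 passed over genes of at least 8 CPM (adjusted p = 0.0485), with no filter on low values (0.0371) and without number 1 (0.0284). Without number 2 its log2 fold change was -0.24 and its adjusted p 1, the highest over all settings. Eed, the third core subunit, was at 8.02, 7.96 and 7.95 in KO libraries, against 7.94, 8.01 and 8.01 in WT libraries, which overlapped.

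Of 24 tested partners in NuRD, CoREST and BCL6 co-repressor complexes 17 were negative, with a median of -0.100 (-0.051 without number 2), and the smallest p was that of the co-repressor Ctbp1 (-0.27 ± 0.24, limma adjusted p = 0.168). Of 27 tested remodeller partners 21 were negative, with a median of -0.102 (-0.047 without number 2 and -0.177 without number 3), led by the ATPase gene Atrx (-0.31 ± 0.33, limma adjusted p = 0.215). Of 44 tested writers and erasers with other symbols 26 were negative, with a median of -0.027 (-0.00025 without number 1 and -0.053 without number 3), led by Mll5, now named Kmt2e (-0.25 ± 0.17, limma adjusted p = 0.235). None of these 3 lists held a gene past 5% FDR, and every gene in them with an unadjusted p under 0.05 had a negative fold change (3 co-repressor partners, 6 remodeller partners, 6 writers and erasers), where all genes tested had 4.66% with a negative and 4.16% with a positive one. Of the writers and erasers 7 of 44 (15.9%) had every KO library above every WT library, against 15.2% of all genes tested. For 6 of 44 (13.6%) every KO library lay below, against 12.5% of all genes, so both shares of this list were near those of all genes. Every KO library lay below for 6 of 24 co-repressor partners (25%), 6 of 27 remodeller partners (22.2%) and 5 of 25 Polycomb partners (20%). It lay above for 3 (12.5%), 1 (3.70%) and 2 (8%) of them in the same order. These leave-one-out medians of the partner lists were added after the data had been seen. Ctbp1 passed without number 1 (adjusted p = 0.00656) and Atrx without number 3 (adjusted p = 0.0109).

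The 8 members that were not tested had geometric means under 1 CPM over the 6 libraries. Setd1b had 0.937 CPM in KO and 1.05 CPM in WT, and Kdm4d 0.639 CPM in KO and 0.540 CPM in WT. Smarcd3 had log2 CPM of -2.05, -2.67 and -1.87 in KO libraries, against -1.38, -0.76 and -1.55 in WT libraries, which did not overlap. Hdac11, Chd5, Smarca1 and Smarca5-ps lay lower still. Kdm5d, a gene of the Y chromosome, was at the lowest common value of -5.063 in all 6 libraries, while its X-linked relative Kdm5c had a geometric mean of 67.7 CPM in KO and 69.5 CPM in WT.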

How the data were processed

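The deposited values are log2 CPM per gene, made by the authors from reads of 6 libraries. STAR 2.6.1a, featureCounts of Subread 2.0.1, limma, Trim Galore 0.6.5 and FastQC 0.11.7 were used with the mm10 build, per the submitters' processing notes; settings and strand are not given in the sources used here. For each gene the deposited KO and WT values of a replicate number add up to 1 sum over the 3 numbers, to within 0.001. Differences between replicate numbers are therefore absent from the values, the groups have equal SDs by construction, and whether the numbers pair the samples cannot be checked from the files. Library depth is unknown, so no counting interval is given.

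KO was compared with WT with limma 3.58.1 in R 4.3.3 (genotype with replicate number as a block, variance trend, robust empirical Bayes, Benjamini-Hochberg adjustment at 5% FDR over 10133 genes). Genes needed a geometric mean of at least 1 CPM and more than 1 distinct value. The fit had 2 residual degrees of freedom and a median of 81.2 prior ones, and was tested on simulated data, with values not reported here. The simulated variances were drawn from the fit's own prior, so they cannot show how genes that depart from it are treated. Lengths came from GENCODE (GRCm38), promoters from RefSeq. KMT2 genes are listed under older Mll symbols, and Setd8 is the older symbol of Kmt5a; Kmt2a and Kmt2d were not found as symbols. Named genes were those with the smallest p of each class, those of 1 sign with the largest differences, textbook members, and the gene of smallest p in each partner list. Smarca5, Smarce1, Smarcad1, Smarcd2, Chd9, Cbx2, Kat5, Kat7, Kat8, Brd1, Brd3, Brd7, Brd9, Eed, Irf4, Prdm1, Igj, Mzb1, Xbp1, Kdm5c, Kat6b and Hdac4, and the untested genes, were named after their values were seen. Members and lists were chosen with earlier results of these data known. Alternatives changed the block, the filter, the trend, the robust step, the offset, the centring and the replicate numbers used. Some results of single genes are not reported here.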

Additional observations from a re-analysis of the deposited data

How the results depend on the processing

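Of all genes tested, 27 passed 5% FDR (limma), and the count was 142 without the replicate block, 95 with no filter on low values, 12 with non-robust empirical Bayes and 0 with no variance trend (640 genes then had an unadjusted p under 0.05). With 1 replicate number left out it ran between 11 (without number 2) and 136 (without number 1). Of the chromatin genes 0 passed, against 1 without the replicate block, 2 with no filter, and 0 to 3 with a replicate number left out. Since the values carry no difference between numbers, the fit without the block counts degrees of freedom that the values do not hold. The median over SETD and SETDB genes was -0.126, against -0.032 over genes of at least 8 CPM and -0.1005 to -0.0215 with a number left out. Of 110 class medians under alternatives 108 stayed within 1 SD of the pair medians. Leaving out the block, the trend or the robust step cannot move a fold change here, so those medians were fixed in advance. The limit also let turns of sign through. The HDAC median of 0.011 was -0.011 without number 3, and the KDM median of -0.038 was 0.008 without number 1. The count is thus no measure of stability. Of 50 named genes 9 passed under at least 1 alternative and 12 changed sign without passing. The cause of these shifts was not tested. Unknown depth limits any statement on genes of low level.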
